A study of Mus musculus with 26 samples.

Results

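The PGC-1 coactivators were read here through every probe set that the platform annotation gives to exactly 1 of their 3 genes, Ppargc1a (PGC-1 alpha), Ppargc1b (PGC-1 beta) and Pprc1 (PGC-1-related coactivator). There were 7 such probe sets of 45101 on the array, 5 for Ppargc1a, 1 for Ppargc1b and 1 for Pprc1, and each was described on its own. The values are array intensities from the tibialis anterior and extensor digitorum longus (TA/EDL), fast muscles of the lower hind leg, with 1 array for each of 26 mice. The groups were 7 MKO and 6 FLOX mice under calorie restriction (CR), and 7 MKO and 6 FLOX mice on the control diet. Per the labels, MKO stands for loss of PGC-1a in skeletal muscle only and FLOX for its littermate control. All mice had a mixed C57/BL6 and 129 background, lived in single cages and ate AIN-93M food for 12 weeks. Control mice received 90% of their free intake, whereas CR mice received 80% in the first week and then 60% of it as the restriction form of the diet. The promoter that drives the recombinase, the exons removed, and the sex and age of the mice are not stated in the sources used.

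The PGC-1 proteins do not bind DNA themselves. They dock on transcription factors such as the estrogen-related receptors, the nuclear respiratory factors and the PPARs, and recruit histone acetyltransferases and the Mediator complex to genes for mitochondria, fuel oxidation and blood vessel growth. In skeletal muscle, Ppargc1a is known as the member that responds to exercise, cold and fasting, Ppargc1b as a constitutive driver of mitochondrial genes, and Pprc1 as a growth-regulated relative.

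Ppargc1a lies on chromosome 5 (chr5:51454249-52115853) and Pprc1 on chromosome 19 (chr19:46056526-46072909) in GRCm38.p6. The promoter of Ppargc1a is shown because cyclic AMP signalling is known to act on it through a CRE, and that of Pprc1 as the relative with no called difference. Both come from RefSeq on GRCm38.p6 and run 250 bases before to 50 bases after a transcription start. The Ppargc1a window (chr5:51567676-51567975, minus strand) lies inside the annotated extent of the gene, which has other, more distant starts.
Ppargc1a: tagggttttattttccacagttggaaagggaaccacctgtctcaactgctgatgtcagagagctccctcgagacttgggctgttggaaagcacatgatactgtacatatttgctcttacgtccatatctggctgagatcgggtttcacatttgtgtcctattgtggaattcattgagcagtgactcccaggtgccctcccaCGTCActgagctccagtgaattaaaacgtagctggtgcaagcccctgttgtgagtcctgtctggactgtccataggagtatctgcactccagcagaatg
Pprc1: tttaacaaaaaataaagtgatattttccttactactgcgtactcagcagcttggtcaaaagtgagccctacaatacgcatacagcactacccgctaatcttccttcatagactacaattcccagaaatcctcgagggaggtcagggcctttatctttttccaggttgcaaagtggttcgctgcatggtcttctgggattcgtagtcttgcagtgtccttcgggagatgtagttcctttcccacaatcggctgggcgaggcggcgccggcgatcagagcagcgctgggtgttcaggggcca
Capitals mark the only match to the motifs searched, a CRE half-site. It was read as TGACG on the strand opposite to the one printed and covers bases 202 to 206, which are positions -49 to -45 relative to the start. Such a half-site occurred in 20.8% of 32851 RefSeq promoters of this length. The Pprc1 window (chr19:46056289-46056588, plus strand) held no match to any motif searched on both strands. The other motifs were an E-box (CACGTG, in 7.15% of promoters), an ERR half-site (AAGGTCA, 4.72%), an ETS core (CCGGAAG, 8.86%), an NRF1 core (GCGCATGC, 2.71%) and the MEF2 site (3.19%).

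Probe sets of all 3 genes were well lit in muscle. Over all arrays, the 5 Ppargc1a probe sets ranked between the 82.4th and 92.1st percentile of mean intensity, Ppargc1b at the 90.8th and Pprc1 at the 78.5th. Brightness depends on the probes, so these ranks set no gene above another. The tissue label held, since 7 markers of the muscle fibre, among them the creatine kinase Ckm and the actin Acta1, stood between the 99.94th and 100th percentile. Over all probe sets, arrays within a group had pairwise r of 0.987 to 0.996. The RNA came from whole muscle, in which fewer cells of a type and less RNA per cell cannot be told apart.

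Ppargc1a, the targeted gene, gave more signal and not less in the mice labelled MKO, at all 5 probe sets and on both diets. The probe positions relative to the removed exons are not known here, so the signal does not tell whether functional transcript was present, and MKO is used below as a label. The brightest probe set, 1437751_at, read 1473, 1641 and 1966 (lowest, median and highest mouse) in MKO mice on CR, against 908, 1021 and 1411 in FLOX mice on CR. On the control diet it read 1244, 1425 and 2360 in MKO mice, against 797, 923 and 985 in FLOX mice. Every MKO mouse lay above every FLOX mouse of the same diet.

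The platform annotation lists probe sets 1434100_x_at and 1434099_at under the same sequence accession. Their within-group values correlated at r = 0.99 over 26 arrays. They are not separate evidence, although the counts below include each of them. The _x_ suffix marks probes that may bind related transcripts. Probe set 1434100_x_at read 1111, 1175 and 1494 in MKO mice on CR, against 643, 750 and 991 in FLOX mice on CR. On the control diet it read 841, 981 and 1869 in MKO mice, against 541, 630 and 648 in FLOX mice. Probe set 1434099_at read 1017, 1117 and 1371 in MKO mice on CR, against 597, 688 and 920 in FLOX mice on CR. On both diets the genotypes were again separate at these probe sets. For 1434099_at on the control diet the values were 790, 960 and 1785 in MKO mice, against 503, 578 and 612 in FLOX mice.

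The dimmer probe sets separated the genotypes fully on the control diet and in part on CR. Probe set 1460336_at read 665, 733 and 837 in MKO mice on the control diet, against 401, 487 and 512 in FLOX mice. On CR it read 672, 808 and 887 in MKO mice, against 452, 583 and 703 in FLOX mice, with 6 of 7 MKO mice above all FLOX mice. Probe set 1456395_at read 589, 629 and 1017 in MKO mice on the control diet, against 373, 425 and 512 in FLOX mice. The CR groups overlapped more at 1456395_at, with 708, 741 and 883 in MKO mice and 439, 545 and 732 in FLOX mice, and 4 of 7 MKO mice above all FLOX mice. FLOX mouse 5 reached into the MKO range of CR at both probe sets and FLOX mouse 6 at 1456395_at, and these mice were the 2 highest of their group at all 5 probe sets.

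**Figure D1:**
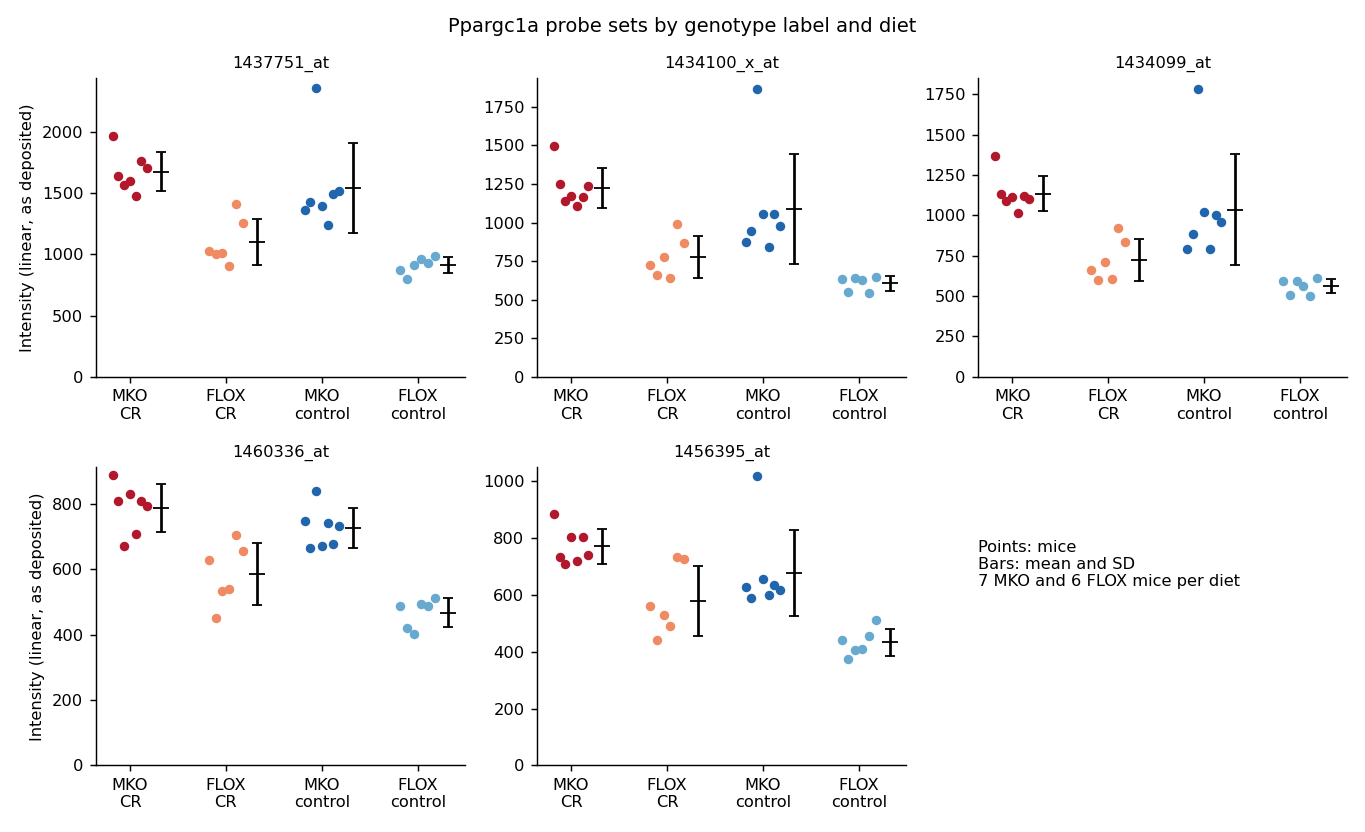
Deposited intensity (y axes, linear, starting at 0) of the 5 Ppargc1a probe sets in each mouse; colours mark the 4 groups, and crosses with bars give the mean and SD (7 MKO and 6 FLOX mice per diet). Every MKO mouse on the control diet lies above every FLOX mouse on that diet, and control-diet MKO mouse 3 stands alone at 4 of the 5 probe sets.

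In the test across all probe sets, Ppargc1a rose in MKO mice relative to FLOX mice on both diets. Tests were limma fits on log2(intensity + 16) with Benjamini-Hochberg adjustment over 45037 probe sets, and a change was called at an adjusted p under 0.05. On the control diet 1437751_at was 1.65-fold higher (95% interval 1.42 to 1.93, adjusted p = 4.12e-05), and 1434099_at was 1.76-fold higher (1.46 to 2.12, adjusted p = 0.000101). The other probe sets were 1.72-fold (1434100_x_at, adjusted p = 0.000125), 1.53-fold (1460336_at, adjusted p = 9.13e-06) and 1.53-fold higher (1456395_at, adjusted p = 0.000543). On CR the same order of probe sets gave 1.52-fold (1437751_at, 1.30 to 1.77, adjusted p = 0.0003), 1.57-fold (1434099_at, 1.31 to 1.90, adjusted p = 0.000967), 1.57-fold (1434100_x_at, adjusted p = 0.000756), 1.34-fold (1460336_at, adjusted p = 0.000745) and 1.34-fold (1456395_at, adjusted p = 0.0136). In all, 6 of the 7 family probe sets were called higher on the control diet, where 11.6% of all probe sets were called and 5.59% were called higher. On CR 5 of 7 were called higher, where 10.7% of all probe sets were called and 5.4% were called higher. The genotypes did not overlap at 5 family probe sets on the control diet and at 3 on CR, all Ppargc1a, against 3.98% and 5.1% of all probe sets in these comparisons. The Ppargc1a probe sets read the same gene on the same arrays. These counts and those below are therefore not counts of independent features.

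In FLOX mice all 5 Ppargc1a probe sets had higher means on CR than on the control diet, by 1.20- to 1.31-fold, and whether a probe set passed depended on single mice. The rise passed the test at 1460336_at (585 ± 93.4 on CR against 467 ± 44.5 on the control diet, SD, n = 6 each; 1.24-fold, 95% interval 1.09 to 1.40, limma adjusted p = 0.0308) and at 1456395_at (579 ± 123 against 433 ± 48.7, n = 6 each; 1.31-fold, 1.11 to 1.55, limma adjusted p = 0.0469). It did not pass at 1437751_at (1.20-fold, 1.02 to 1.40, adjusted p = 0.209), 1434100_x_at (1.26-fold, 1.05 to 1.52, adjusted p = 0.152) or 1434099_at (1.26-fold, 1.04 to 1.53, adjusted p = 0.163). The groups overlapped at every family probe set, where 3.6% of all probe sets did not overlap, and at each Ppargc1a probe set mice 5 and 6 were the highest of the CR group. These 2 calls of 7 family probe sets stood beside 5.67% of all probe sets called in that comparison and 2.57% called higher. No family probe set was called without FLOX mouse 1, 5 or 6 of the CR group or without FLOX mouse 2 or 3 of the control group, and 4 were called without MKO mouse 3 of the control group, whose spread enters the shared variance.

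In MKO mice the means of all 5 Ppargc1a probe sets were also higher on CR than on the control diet, by 1.08- to 1.16-fold, and none passed. The largest was 1434100_x_at, at 1224 ± 129 on CR against 1088 ± 354 on the control diet (SD, n = 7 each; 1.16-fold, 95% interval 0.972 to 1.38, limma adjusted p = 0.338). The count of 0 of 7 stood beside 9.37% of all probe sets called by limma (4.21% higher), and 2.36% that did not overlap, with an unadjusted p between 0.0748 and 0.773 for the family. It rested on control-diet MKO mouse 3, which had 1869 at that probe set where the next mouse had 1058. Without this mouse 4 of the 5 Ppargc1a probe sets were called, with log2 differences of 0.25 (1437751_at, adjusted p = 0.0483), 0.35 (1434100_x_at, adjusted p = 0.00846), 0.32 (1434099_at, adjusted p = 0.0206) and 0.30 (1456395_at, adjusted p = 0.0323), while 1460336_at had 0.15 (adjusted p = 0.285).

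The diet effect in MKO mice minus that in FLOX mice was between -0.19 and -0.12 on the log2 scale at the Ppargc1a probe sets, and no family probe set passed (limma adjusted p = 0.999903 for each). For 1437751_at the 95% interval of this difference ran from -0.43 to 0.19, which leaves room for a difference of either sign. Limma called none of the 45037 probe sets in this comparison, and 2106 had an unadjusted p under 0.05. The order of the group means was the same at all 5 probe sets, MKO on CR, MKO on the control diet, FLOX on CR and FLOX on the control diet. The neighbours MKO on the control diet and FLOX on CR overlapped at every probe set, with a lowest MKO mouse of 1244 and a highest FLOX mouse of 1411 at 1437751_at.

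The 5 Ppargc1a probe sets tracked each other from mouse to mouse, though not equally. After group means were subtracted, pairs of probe sets correlated at r = 0.56 to 0.99 over 26 arrays, and at 0.53 to 0.98 without control-diet MKO mouse 3. The lowest correlations were those of 1460336_at, at 0.56 with both 1434100_x_at and 1434099_at, and its highest was 0.80, with 1456395_at. Probe set 1460336_at was also the one Ppargc1a probe set at which control-diet MKO mouse 3 did not stand far from its group (837 against a group median of 733).

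Ppargc1b, the beta form, lies on chromosome 18 (chr18:61291445-61400756, GRCm38.p6) and differed little between groups. It read 1032, 1223 and 1346 in MKO mice on CR, against 856, 1054 and 1310 in FLOX mice on CR. On the control diet it read 1027, 1161 and 1291 in MKO mice, against 938, 980 and 1109 in FLOX mice, and 6 of 7 MKO mice lay above all FLOX mice. The rise in MKO mice on the control diet was 1.17-fold (1174 ± 85.9, n = 7, against 1001 ± 62.3, n = 6; 95% interval 1.05 to 1.30, limma adjusted p = 0.0493). This call lay at the threshold and was lost under 4 settings and in 19 of 26 fits without 1 mouse, with an adjusted p of up to 0.111. On CR the difference was 1.13-fold (1.01 to 1.25, adjusted p = 0.159) and did not pass, but it did so without FLOX mouse 4 of that group, whose 1310 was the highest FLOX value (adjusted p = 0.0323).

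Diet left Ppargc1b within narrow bounds. The difference of CR from the control diet was 1.05-fold in FLOX mice (95% interval 0.943 to 1.18, adjusted p = 0.723) and 1.01-fold in MKO mice (0.916 to 1.12, adjusted p = 0.912). The intervals include no change and reach at most 1.18-fold. The difference between these diet effects was -0.05 on the log2 scale (95% interval -0.27 to 0.16).

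No difference of Pprc1 passed in any comparison. It read 465, 513 and 552 in MKO mice on CR, against 448, 464 and 500 in FLOX mice on CR. On the control diet it read 467, 501 and 542 in MKO mice, against 468, 490 and 536 in FLOX mice, so the ranges lay almost on top of each other. The control-diet difference was 1.01-fold (95% interval 0.952 to 1.07, adjusted p = 0.859). On CR it was 1.08-fold (1.02 to 1.15, adjusted p = 0.0877), with 4 of 7 MKO mice above all FLOX mice. That comparison passed under 3 alternatives, namely quantile normalization (adjusted p = 0.0484), the replicate number as a block (adjusted p = 0.044) and the fit without CR MKO mouse 6 (adjusted p = 0.0403). CR against the control diet gave 0.955-fold in FLOX mice (0.897 to 1.02, adjusted p = 0.497) and 1.02-fold in MKO mice (0.965 to 1.08, adjusted p = 0.723).

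**Figure D2:**
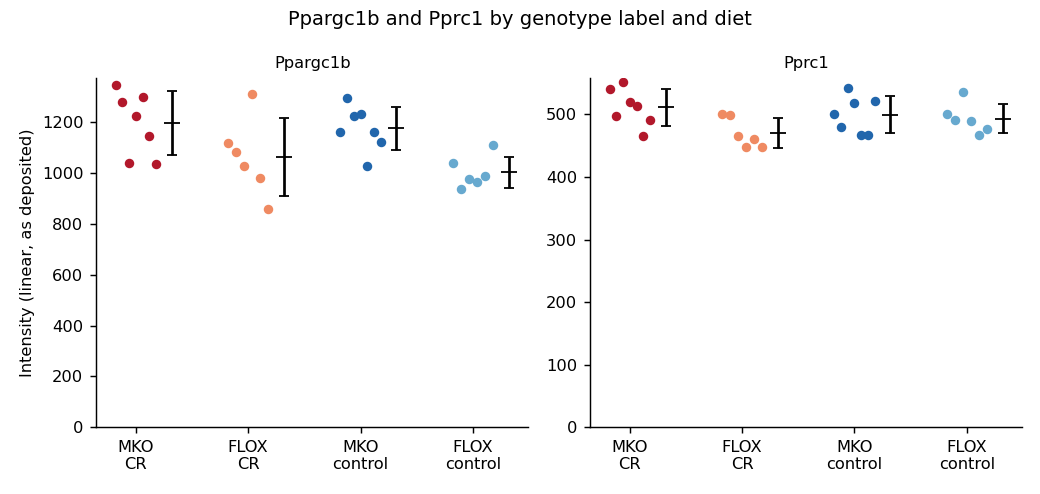
Deposited intensity (y axes, linear, starting at 0) of the Ppargc1b and Pprc1 probe sets in each mouse; colours mark the 4 groups, and crosses with bars give the mean and SD. The groups of both genes overlap in all comparisons, and CR FLOX mouse 4 is the highest FLOX value of Ppargc1b at 1310.

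**Figure D3:**
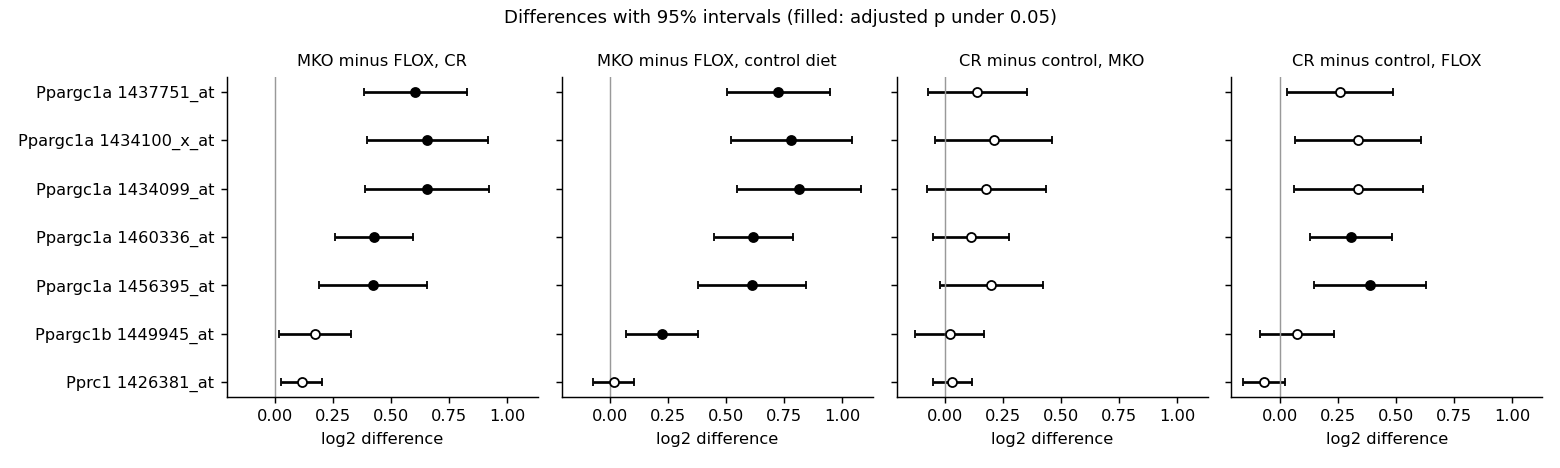
Log2 differences (x axes) of the 7 family probe sets with 95% intervals from the limma fit, 1 panel per comparison; filled points passed an adjusted p under 0.05. The Ppargc1a probe sets are filled in both genotype panels, 2 are filled for CR in FLOX mice and none for CR in MKO mice.

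To ask whether the members changed unequally, the log2 difference between the brightest probe sets of 2 members was taken within each array and tested between groups by exact permutation of mice (two-sided, adjusted over 12 tests). Ppargc1a gained on Ppargc1b in MKO mice on the control diet by 1.41-fold, with a mean log2 difference of 0.36 ± 0.27 in MKO mice (n = 7) and -0.14 ± 0.09 in FLOX mice (SD, n = 6). All 7 MKO mice lay above all FLOX mice, and the exact p of 0.000583 was the smallest this design allows (adjusted p = 0.0035). On CR the gain was 1.35-fold, and 3 of 7 MKO mice lay above all FLOX mice (exact test, adjusted p = 0.0583). FLOX mice 5 and 6 of the CR group, with high Ppargc1a and the 2 lowest Ppargc1b values of that group, lay inside the MKO range.

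Against Pprc1, Ppargc1a gained 1.63-fold in MKO mice on the control diet (exact permutation, adjusted p = 0.0035, 7 of 7 MKO mice above all FLOX mice) and 1.40-fold on CR (exact permutation, adjusted p = 0.0117, 5 of 7). It also gained on Pprc1 with CR in FLOX mice, by 1.25-fold (exact permutation, adjusted p = 0.026, 3 of 6 CR mice above all control mice), a call lost without control-diet FLOX mouse 1, 2, 3, 4 or 5. In MKO mice the diet left this ratio at 1.08-fold (exact permutation, adjusted p = 0.433). Ppargc1b gained on Pprc1 by 1.16-fold in MKO mice on the control diet (exact permutation, adjusted p = 0.026, 3 of 7 above), a call lost without control-diet FLOX mouse 2, 3 or 4, and by 1.04-fold on CR (exact permutation, adjusted p = 0.639). A ratio within an array shows unequal change and not which of the members changed. The remaining 4 of the 12 tests, all of diet, had adjusted p from 0.304 to 0.886.

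**Figure D4:**
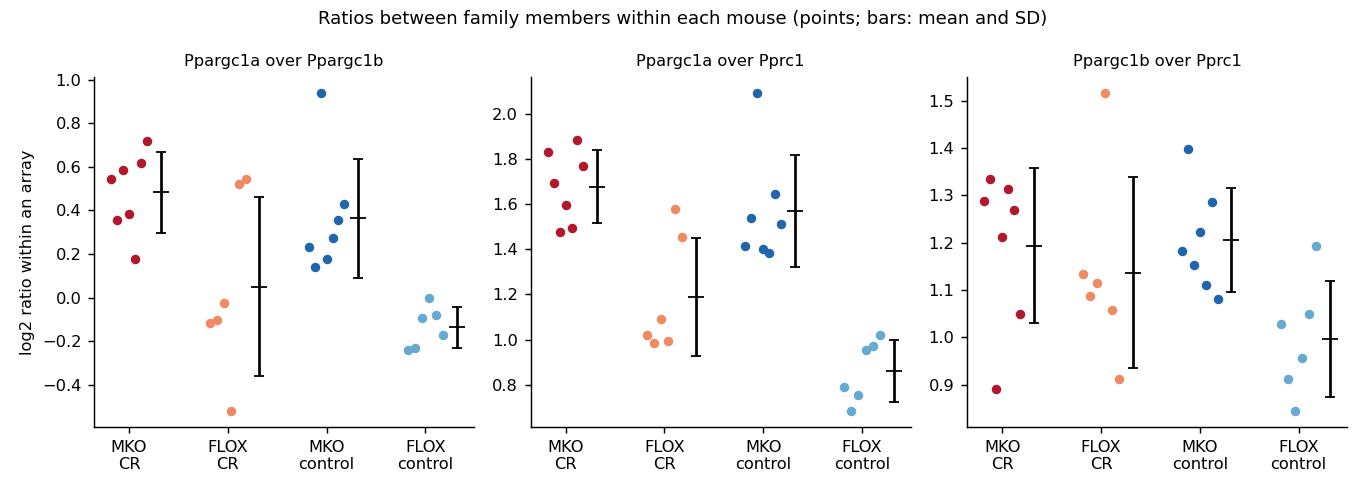
Log2 difference between the brightest probe sets of 2 members within each array (y axes), by group; points are mice, and crosses with bars give the mean and SD. The MKO mice lie above the FLOX mice for Ppargc1a over either relative on the control diet, and the CR FLOX group splits, with mice 5 and 6 high for Ppargc1a over Ppargc1b.

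Within groups the 3 members did not vary together to a degree that these arrays could show. Ppargc1a and Ppargc1b had r = -0.10 and rho = -0.11 over 26 arrays with group means subtracted. Ppargc1a and Pprc1 had r = 0.18 and rho = -0.01, and Ppargc1b and Pprc1 had r = 0.13 and rho = 0.16. The permutation p, adjusted over the 3 pairs, was 0.663 for each r and 0.888 to 0.954 for rho. Without the 2 arrays farthest from the median of the first member, r was -0.17, -0.05 and 0.19 in the same order.

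The genes whose within-group pattern was most like each member's were ranked among 26116 probe sets by Pearson's r over the 26 arrays, as a description of arrays that share a platform and processing. For Ppargc1a they were Cox10 (r = 0.82, an enzyme of the heme A pathway of cytochrome oxidase), Dhx30 (0.82, an RNA helicase of mitochondrial RNA granules), Rps7 (0.81, a ribosomal protein) and Pgm5 (0.80, a phosphoglucomutase relative). Without the 2 farthest arrays Cox10 kept r = 0.79, whereas Dhx30, Rps7 and Pgm5 had 0.57, 0.50 and 0.59. The middle 90% of the ranked probe sets lay between -0.50 and 0.48. The likeness within groups did not fix the direction between them. Cox10 was 1.31-fold lower in MKO mice on the control diet (719 against 946 in FLOX mice, limma adjusted p = 3.95e-05) and 1.32-fold lower on CR (827 against 1099, limma adjusted p = 2.23e-05), where Ppargc1a signal was higher. Rps7 was 1.13-fold higher in MKO mice on CR (8086 against 7152, limma adjusted p = 0.00382), Pgm5 was 1.13-fold lower there (383 against 434, limma adjusted p = 0.0152), and Dhx30 did not pass on either diet.

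For Ppargc1b the 4 most alike were Arf2 (r = 0.79, a small GTPase of vesicle traffic), Adamts5 (0.77, a protease of matrix proteoglycans), Coq7 (0.75, a hydroxylase of coenzyme Q synthesis) and Sephs1 (0.74, a selenophosphate synthetase relative). Without the 2 farthest arrays of Ppargc1b, r was 0.77, 0.74, 0.76 and 0.58 in the same order. Adamts5 rose in MKO mice on the control diet (1.16-fold, limma adjusted p = 0.0252) and on CR (1.15-fold, limma adjusted p = 0.0465), and Arf2 was 1.11-fold lower on the control diet (limma adjusted p = 0.0193). Coq7 fell in MKO mice on the control diet (1734 against 2233 in FLOX mice, 1.29-fold lower, limma adjusted p = 0.00033) and on CR (1701 against 2487, 1.46-fold lower, limma adjusted p = 8.03e-07). For Pprc1 they were Armcx2 (0.85, an armadillo repeat protein), Nufip2 (0.85, an RNA-binding protein), Fbxo28 (0.84, a ubiquitin ligase subunit) and Zfp148 (0.83, a zinc finger transcription factor). Without the 2 farthest arrays of Pprc1 these had r of 0.809 to 0.822. Zfp148 rose in MKO mice on the control diet (1.15-fold, limma adjusted p = 0.00407) and on CR (1.14-fold, limma adjusted p = 0.0071). Armcx2, Nufip2 and Fbxo28 did not pass between genotypes on either diet.

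The transcription factors on which PGC-1 proteins dock moved in both directions with genotype. Of 20 measured partners, 3 rose and 3 fell in MKO mice on the control diet (30%, against 11.6% of all probe sets called; median log2 difference -0.00, against -0.01 over all probe sets), and 3 rose and 2 fell on CR (25%, against 10.7% of all probe sets; median 0.04). The shares of all probe sets, here and below, include dim probe sets, whereas list genes were read by their brightest one. Of the 22518 probe sets above the 50th percentile of mean intensity, fitted alone, 4953 were called on the control diet and 4695 on CR. Esrra, the estrogen-related receptor alpha that drives respiratory chain genes with PGC-1 alpha, fell 1.44-fold on the control diet (1296 in MKO mice against 1880 in FLOX mice; log2 -0.53 ± 0.05 SE, limma adjusted p = 5e-08) and 1.40-fold on CR (1331 against 1865; adjusted p = 1.53e-07). All 7 MKO mice of each diet lay below all FLOX mice.

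Other partners moved less. Esrrb, a second receptor of that family, fell 1.43-fold in MKO mice on the control diet (974 against 1400, limma adjusted p = 0.00141), and on CR its means were 954 in MKO mice and 1080 in FLOX mice (adjusted p = 0.368). Yy1, a zinc finger factor that recruits PGC-1 alpha to mitochondrial genes, rose 1.28-fold on the control diet (1532 against 1195, adjusted p = 0.000321) and 1.22-fold on CR (1417 against 1157, adjusted p = 0.0025). Mef2a, a myocyte enhancer factor, rose 1.14-fold in MKO mice on CR (adjusted p = 0.00994). The other called partners, picked out after their values were seen, were Mef2c (higher on both diets), Esrrg (higher on the control diet), Ppard (lower on the control diet) and Rxrb (lower on CR). Nrf1, Gabpa and Gabpb1, the nuclear respiratory factors, were among those that did not pass on either diet, with adjusted p from 0.176 to 0.93.

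Under CR 1 partner rose and 2 fell in FLOX mice (15% of 20, against 5.67% of all probe sets called; median -0.01). In MKO mice 1 rose and 1 fell (10%, near the 9.37% of all probe sets; median -0.01). With diet, 2667 of the 22518 probe sets above the 50th percentile were called in FLOX mice and 3970 in MKO mice. Mef2c, a myocyte enhancer factor and known activator of the Ppargc1a promoter, fell on CR 1.23-fold in FLOX mice (6855 on CR against 8404 on the control diet, limma adjusted p = 0.000215) and 1.26-fold in MKO mice (7638 against 9628, adjusted p = 8.85e-06), with every CR mouse below every control mouse of its genotype. Ppara, the fatty acid sensor, rose 1.27-fold in FLOX mice on CR (508 against 401, adjusted p = 0.0351) and had 420 on CR against 369.5 on the control diet in MKO mice (adjusted p = 0.242). Esrrb fell 1.30-fold in FLOX mice on CR (adjusted p = 0.0393), and Mef2d rose 1.12-fold in MKO mice on CR (adjusted p = 0.0198).

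Most genes known to control PGC-1 proteins or their promoters did not pass between genotypes. Of 29 measured regulators, 3 rose and none fell in MKO mice on the control diet (10.3%, near the 11.6% of all probe sets called; median log2 difference 0.04), and 4 rose and 1 fell on CR (17.2%, against 10.7% of all probe sets; median 0.06). Prmt1, an arginine methyltransferase of PGC-1 alpha, rose 1.18-fold on the control diet (2063 in MKO mice against 1751 in FLOX mice, limma adjusted p = 0.0028) and 1.22-fold on CR (2263 against 1855, adjusted p = 0.000339). Ppp3cb, a catalytic subunit of calcineurin, which acts through MEF2 factors on the Ppargc1a promoter, rose 1.17-fold on each diet (adjusted p = 0.00103 on the control diet and 0.00133 on CR). Gsk3b, a kinase that marks PGC-1 alpha for breakdown, rose 1.17-fold on the control diet (adjusted p = 0.0019) and 1.14-fold on CR (adjusted p = 0.0072).

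The kinases and deacetylase that link energy status to PGC-1 alpha were not called in any comparison. Prkaa1 and Prkaa2, the catalytic subunits of AMPK, and Sirt1 had limma adjusted p of 0.17 or higher throughout. Under CR 2 regulators rose and 3 fell in FLOX mice (17.2% of 29, against 5.67% of all probe sets called; median log2 difference 0.00), and 1 rose and 4 fell in MKO mice (17.2%, against 9.37%; median -0.01). These shares of all probe sets include dim ones. Above the 50th percentile of mean intensity 2667 of 22518 probe sets were called in FLOX mice and 3970 in MKO mice. Med1, the Mediator subunit that PGC-1 alpha contacts, rose on CR 1.16-fold in FLOX mice (994 against 852 on the control diet, adjusted p = 0.00445) and 1.12-fold in MKO mice (1049 against 931, adjusted p = 0.0123). Ppp3cb fell on CR 1.15-fold in FLOX mice (adjusted p = 0.0116) and 1.15-fold in MKO mice (adjusted p = 0.00269). Creb1, which binds CREs, fell 1.12-fold in MKO mice on CR (adjusted p = 0.00283), and Camk4, a calcium-dependent kinase upstream of it, rose 1.10-fold in FLOX mice on CR (adjusted p = 0.0227).

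Genes that PGC-1 alpha is known to switch on in muscle went down in the same mice whose Ppargc1a signal was up. Of 20 measured targets, 12 fell and none rose in MKO mice on the control diet (60%, median log2 difference -0.20, where 6.03% of all probe sets fell), and 17 fell and none rose on CR (85%, median -0.39, where 5.33% fell). All 12 that fell on the control diet were among the 17 that fell on CR. The median over all probe sets was -0.01 in both comparisons. The target list was chosen with earlier results of these data known, so these shares are a description and not an independent test.

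Cox7a1, the muscle form of a cytochrome oxidase subunit, fell 1.64-fold in MKO mice on the control diet (6050 against 9933 in FLOX mice; log2 -0.72 ± 0.05 SE, limma adjusted p = 2.67e-11) and 1.82-fold on CR (5267 against 9578, adjusted p = 4.77e-13). Fndc5, which encodes the precursor of irisin, fell 1.56-fold on the control diet (911 against 1432, adjusted p = 1.48e-09) and 1.62-fold on CR (931 against 1519, adjusted p = 1.79e-10). Got2, the mitochondrial aspartate aminotransferase, fell 1.54-fold on the control diet (6723 against 10349, adjusted p = 7.64e-09). Every MKO mouse lay below every FLOX mouse of its diet for these genes. Sod2, the mitochondrial superoxide dismutase, fell 1.55-fold in MKO mice on CR (4303 against 6683, adjusted p = 4.21e-10).

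The targets that were not called on either diet, picked out after their values were seen, were Tfam, Tfb1m and Slc2a4. Tfam, the packaging and transcription factor of mitochondrial DNA, had 986 in MKO mice against 1005 in FLOX mice on the control diet (log2 -0.03, 95% interval -0.11 to 0.05) and 992 against 1037 on CR (-0.06, -0.14 to 0.02). The targets called on CR and not on the control diet were Tfb2m, Pdk4, Ucp3, Vegfa and Perm1. None of the 20 targets was called in the test of the difference between diets. None of all 45037 probe sets was called there either, so this count is not particular to the targets.

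**Figure D5:**
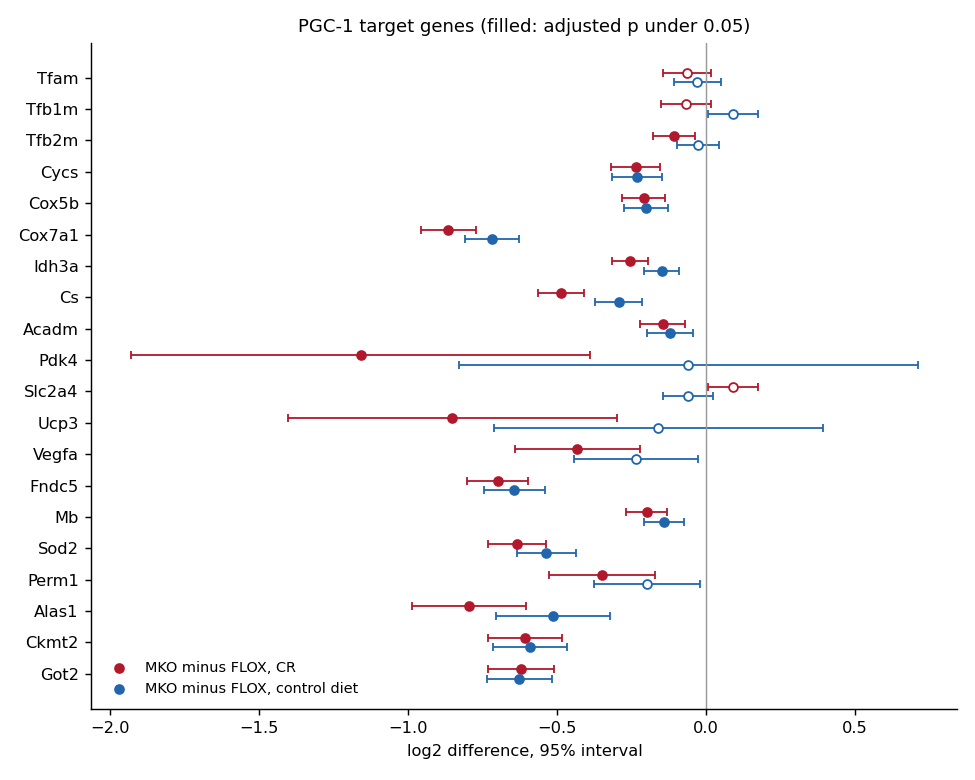
Log2 difference of MKO from FLOX mice (x axis) for 20 PGC-1 target genes, with 95% intervals from the limma fit; red is CR, blue is the control diet, and filled points passed an adjusted p under 0.05. Most points lie left of 0 on both diets, Cox7a1 at -0.86 on CR and -0.72 on the control diet, whereas Tfam, Tfb1m and Slc2a4 stay near 0.

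With CR against the control diet, 3 targets rose and none fell in FLOX mice (15% of 20, median log2 difference 0.04), where 5.67% of all probe sets were called, 2.57% higher and 3.1% lower. They were Cs, citrate synthase (1.12-fold, 11051 on CR against 9884 on the control diet, limma adjusted p = 0.0136), Got2 (1.15-fold, adjusted p = 0.0301) and Alas1, the first enzyme of heme synthesis (1.26-fold, adjusted p = 0.0381). In MKO mice 2 rose and 3 fell (25%, median -0.03), where 9.37% of all probe sets were called, 4.21% higher and 5.16% lower. Pdk4, the kinase that turns off pyruvate dehydrogenase, fell 2.85-fold in MKO mice on CR (2532 against 7702 on the control diet, log2 -1.51 ± 0.36 SE, adjusted p = 0.00697), Cox7a1 fell 1.15-fold (adjusted p = 0.00298) and Got2 rose 1.15-fold (adjusted p = 0.0103).

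From mouse to mouse within groups, most targets had no strong tie to the Ppargc1a signal of 1437751_at. Across 26 arrays with group means subtracted, r with the 20 targets ran from -0.13 to 0.72 with a median of 0.10. The highest were Slc2a4, the insulin-responsive glucose transporter, at 0.72 and Got2 at 0.66, and the lowest was Cs at -0.13. Among partners the range was -0.44 (Esrrb) to 0.64 (Esrrg), and among regulators -0.64 (Ppp3ca) to 0.50 (Kat2a). These arrays share a platform and processing, and over the 26116 probe sets ranked the median r was -0.08. The r values of the lists include control-diet MKO mouse 3 and were not computed without it.

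Of 6 slow-fibre markers, 1 was called higher in MKO mice on each diet (16.7%, against 11.6% of all probe sets called on the control diet and 10.7% on CR), with a median log2 difference over the 6 of 0.60 (control diet) and 0.57 (CR). Their summed intensity read 7554, 9359 and 20709 (lowest, median and highest) in MKO mice on CR, against 4011, 7023 and 7558 in FLOX mice on CR. On the control diet it read 6544, 9659 and 11324 in MKO mice, against 2562, 4932 and 9850 in FLOX mice. Myl3 passed on the control diet (2.36-fold higher, limma adjusted p = 0.00059) and Myl2 on CR (2.39-fold higher, adjusted p = 0.0184). With the mean log2 value of Myh7, Tnni1 and Tnnt1 as a covariate, the Ppargc1a differences were 0.58 to 0.78 on the control diet and 0.39 to 0.63 on CR, and all Ppargc1a calls were kept. The Ppargc1b call on the control diet was not kept (0.24, adjusted p = 0.0582). This score left out Myl2 and Myl3, the called markers. Its medians were 8.54 in MKO and 8.49 in FLOX mice on CR, and 9.25 and 8.34 on the control diet. The fit therefore does not adjust for the whole slow-fibre difference, whose part in the Ppargc1a differences was not tested.

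Markers of other cell types were also read between genotypes, where 11.6% of all probe sets were called on the control diet and 10.7% on CR. Each list had 1 to 5 measured markers, too few to compare with these shares. None of 4 adipocyte, 4 fibroblast, 2 erythroid or 1 Schwann cell markers measured was called between MKO and FLOX mice on either diet. Among 3 brown adipocyte markers Cidea fell on both diets (1.22-fold on the control diet and 1.36-fold on CR, limma adjusted p = 0.0267 and 0.00054). Emcn, 1 of 4 endothelial markers, fell on both diets (1.10-fold on each), and Csf1r, 1 of 5 macrophage markers, on the control diet (1.19-fold). With diet, where 5.67% of all probe sets were called in FLOX mice and 9.37% in MKO mice, 3 of 4 fibroblast markers (Col1a1, Dcn and Thy1) fell on CR in each genotype. Of 4 endothelial markers, Cdh5, Tek and Emcn fell on CR in MKO mice (1.14-, 1.14- and 1.16-fold) and Emcn in FLOX mice (1.16-fold). In FLOX mice on CR the macrophage marker Adgre1 also fell (1.11-fold), and Hba-a1, 1 of 2 erythroid markers, rose (1.10-fold). The fibroblast sum read 6446, 8764 and 9870 in MKO mice on CR against 9803, 11674 and 12066 in MKO mice on the control diet, and 6414, 7779 and 8718 in FLOX mice on CR against 9130, 10606 and 11660 in FLOX mice on the control diet. No marker was at 0, since the lowest intensity on any array was 56.6. The part of these cells in the Ppargc1a differences under CR was not tested.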

How the data were processed

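The deposited table held 1 linear intensity per probe set and array, and the authors' background correction, probe summary and normalization are not stated in the sources used. The deposited intensity was used as log2(intensity + 16) with no further normalization, a scale that understates fold changes of dim probe sets. The 64 control probe sets were left out, and no filter on low values was applied. All 26 arrays entered 1 limma 3.58.1 fit (R 4.3.3) with 1 mean per group, p-values were adjusted by Benjamini-Hochberg over 45037 probe sets, and the number of arrays limits the precision. Array medians lay between 212 and 232. The code was tested on simulated data. Labels say that mice were separate animals, and the comparisons share groups, so they are not independent. Symbols come from the platform annotation, and a list gene is read by its brightest probe set naming it alone. Members, lists (partners, regulators, targets, 9 marker lists) and tests were chosen with earlier results of these data known. Named are all family probe sets, up to 3 called members of smallest p per list and comparison, and the 4 genes most like each member among probe sets above the 30th percentile. Some list genes were not analysed here. Alternatives changed the pseudocount, filter, normalization, variance model, array weights, arrays in the fit, replicate block, slow-fibre covariate and single mice. Promoters come from RefSeq tables, and the Ppargc1b promoter is not shown.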

Additional observations from a re-analysis of the deposited data

Results flagged for a closer look

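Of 28 sets of 6 or 7 values (7 probe sets in 4 groups), 6 had a highest mouse farther from the rest than Dixon's test allows, and chance gives about 1 in 20. All were Ppargc1a probe sets in mice labelled MKO. Control-diet MKO mouse 3 had 2360 at 1437751_at (next mouse 1518), 1869 at 1434100_x_at (next 1058), 1785 at 1434099_at (next 1022) and 1017 at 1456395_at (next 655). Over all probe sets this array was far above its group at 0.846% and far below it at 0.755%, where the arrays of the series ranged from 0.244% to 1.98% and from 0.12% to 0.755%. CR MKO mouse 1 had 1494 at 1434100_x_at (next 1247) and 1371 at 1434099_at (next 1134), and was far above its group at 0.924% of all probe sets. The platform annotation lists 1434100_x_at and 1434099_at under the same sequence accession, so their flags are not separate evidence, although the 6 include both.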

How the results depend on the processing

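The Ppargc1a calls between MKO and FLOX mice kept their direction and threshold in every alternative except 1456395_at on CR, which missed without CR FLOX mouse 2 (adjusted p = 0.0503). Called family probe sets numbered 5 to 6 on the control diet and 4 to 6 on CR without 1 mouse. For CR in FLOX mice the count of 2 became 1 with pseudocount 64, median centring and the trended robust variance, which kept 1460336_at, 3 with array weights, and 0 to 4 without 1 mouse. In a fit of these groups alone both calls were lost (adjusted p = 0.0775 for 1460336_at and 0.0650 for 1456395_at) and 1434100_x_at passed (0.0485). For CR in MKO mice it was 0 to 4, with 4 only without control-diet MKO mouse 3. The Ppargc1b call on the control diet missed with pseudocount 64 (adjusted p = 0.0509), quantile normalization (0.0644), array weights (0.0626) and the slow-fibre covariate (0.0582). The ratio of Ppargc1a to Ppargc1b on CR passed with a replicate block (log2 0.41, adjusted p = 0.0137), where limma replaced the exact permutation test. In the exact permutation test it ran from 0.32 to 0.53 without 1 mouse. It passed there without CR FLOX mouse 5 (adjusted p = 0.0210) or 6 (adjusted p = 0.0189). Without 1 mouse, Ppargc1a over Pprc1 for CR in FLOX mice ran from 0.25 to 0.37, Ppargc1b over Pprc1 between genotypes on the control diet from 0.18 to 0.25, and for CR in MKO mice from -0.0347 to 0.0390, on both sides of 0. Other values near 0 also changed sign. The correlation of Ppargc1a with Ppargc1b was 0.00149 under median centring. Over fits without 1 mouse, Pprc1 on the control diet ran from -0.00263 to 0.0399, Ppargc1b for CR in MKO mice from -0.0100 to 0.0543, the interaction of 1434100_x_at from -0.18 to 0.00985 and that of Ppargc1b from -0.112 to 0.00933. The cause was not tested. Replicate numbers were not treated as pairs in the main fit. The 37 same-number pairs correlated at -0.34 to 0.32, with a median of 0.08 against -0.02 for different numbers. Of 26 arrays, 4 correlated best with their own number. These values cannot tell whether the numbers mark a shared factor. With the replicate block, 6, 6, 2, 0 and 0 family probe sets were called in the 2 genotype comparisons, the 2 diet comparisons (FLOX, then MKO) and the interaction. No count over all probe sets moved by more than 1.5 times. No detection calls were used, so a background limit was not set.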
